A study of Mus musculus with 6 samples.

Results

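Toll-like receptors and their adaptor Myd88 were followed as 9 genes of the deposited table of 22475 mouse genes, taken by their symbols: Tlr1, Tlr2, Tlr3, Tlr4, Tlr6, Tlr7, Tlr8, Tlr9 and Myd88. All 9 were found and all 9 passed the filter on low counts. RNA had been sequenced from bone marrow cells sorted as Lin-, cKit+ and Sca1+, the gate in which blood stem and early progenitor cells lie. KO-Flt3 libraries came from mice homozygous for the FLT3-ITD mutation and for a deletion of miR-155, and WT-Flt3 libraries from mice homozygous for FLT3-ITD with wild type miR-155. The duplication in FLT3-ITD leaves this receptor kinase switched on, and both groups carried it; no mice with normal Flt3 were compared. There were 3 libraries in a group, made from 3 mice combined in each case, so the spread between libraries is a spread between pools. Of the mice, the ages and the lines behind either allele are not given in the sources used here.

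Toll-like receptors are membrane proteins that recognise microbial molecules. Tlr1, Tlr2, Tlr4 and Tlr6 sit at the cell surface and bind lipopeptides or lipopolysaccharide, while Tlr3, Tlr7, Tlr8 and Tlr9 sit in endosomes and bind RNA or DNA. All but Tlr3 signal through Myd88, which recruits IRAK kinases and leads to NF-kB and to interferon regulatory factors; Tlr3 uses Ticam1 (TRIF), and Tlr4 uses both. Stem and progenitor cells carry several of these receptors, but macrophages, monocytes and dendritic cells are known for higher levels. In macrophages miR-155 is induced by these receptors and acts on several of their signalling proteins.

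The libraries held 6843129 to 7601317 counts in KO-Flt3 and 8136914 to 9443615 counts in WT-Flt3. Mir155, the deleted gene, had 0, 0 and 0 counts in KO-Flt3 and 2, 1 and 0 counts in WT-Flt3 libraries 1, 2 and 3, too few to check the labels. The gate genes Kit (299 ± 53.2 CPM in KO-Flt3 and 324 ± 74.8 CPM in WT-Flt3) and Ly6a, which encodes Sca1 (121 ± 9.23 CPM in KO-Flt3 and 112 ± 8.54 CPM in WT-Flt3; SD, n = 3 each), were present in every library. CPM, which are counts divided by the size of the library, were scaled with the TMM method of edgeR. Markers of mature cells were present too. The 17 macrophage markers, all with a count, summed to 945, 302 and 412 CPM in KO-Flt3 libraries 1, 2 and 3, against 1214, 226 and 264 CPM in WT-Flt3 libraries 1, 2 and 3. The 13 dendritic cell markers, all with a count in every library, summed to 2862, 1427 and 1398 CPM in KO-Flt3 and to 1910, 1388 and 1518 CPM in WT-Flt3. The 10 stem and progenitor genes summed to 1473, 2123 and 2084 CPM in KO-Flt3 and to 1562, 2298 and 2158 CPM in WT-Flt3. The 12 B and plasma cell markers, all with a count, summed to 1181, 717 and 1812 CPM in KO-Flt3 and to 4529, 3128 and 4509 CPM in WT-Flt3. The 15 monocyte and neutrophil markers summed to 2167 to 2810 CPM in KO-Flt3 and 1956 to 3169 CPM in WT-Flt3, and the 10 T and NK cell markers to 81.4 to 121 CPM in KO-Flt3 and 124 to 143 CPM in WT-Flt3. In edgeR 0 of the markers tested in any of these lists passed. With the replicate number as a block, 5 of 9 B and plasma cell markers and 2 of 9 T and NK cell markers (Cd28 and Ctla4) fell, against 1.04% of all genes, and 1 of 13 dendritic cell markers (Bst2) rose, against 0.318% of all genes. With DESeq2, where 0.923% of all genes passed in either direction, 4 of 9 B and plasma cell, 4 of 15 monocyte and neutrophil and 2 of 9 T and NK cell markers fell. An unadjusted p under 0.05 in edgeR was held by 8 of 9 B and plasma cell and 8 of 15 monocyte and neutrophil markers. It was also held by 3 of 9 T and NK cell markers and by 0 macrophage, dendritic or progenitor genes, against 3.90% of all genes. Both libraries numbered 1 stood apart, with more RNA of macrophage markers and less of progenitor genes, and KO-Flt3 library 1 also had the most RNA of dendritic markers. In such sorted bulk samples, more cells of a type and more RNA per cell cannot be told apart.

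Levels of different genes were compared per gene length, in the FPKM values that the authors deposited. Over the 6 libraries Tlr3 had the highest mean of the 9 genes, 29.2 FPKM, and ranged from 19.6 to 51.0. Myd88 followed with 19.9 FPKM (17.4 to 21.3) and Tlr2 with 14.7 FPKM (10.2 to 21.3). Tlr4 averaged 6.27 FPKM (4.43 to 7.49), Tlr7 4.66 FPKM (2.51 to 8.25) and Tlr9 4.63 FPKM (3.06 to 7.54). The lowest were Tlr6 with 3.27 FPKM (2.41 to 4.03), Tlr1 with 2.40 FPKM (1.44 to 3.43) and Tlr8 with 2.22 FPKM (1.41 to 4.02). Only the step between Tlr2 and Tlr4 separated neighbours without overlap of their ranges. Tlr3 exceeded Myd88, and Myd88 exceeded Tlr2, in 5 of 6 libraries each, whereas Tlr7 exceeded Tlr9 in 2 of 6. Among the 4 receptors outside the chosen genes, Tlr11, an endosomal receptor for profilin, had the highest mean of all, 32.8 FPKM (21.8 to 57.0). Tlr13, which binds bacterial ribosomal RNA, ranged from 9.01 to 20.0 FPKM, and Tlr12, which also binds profilin, averaged 6.15 FPKM. Tlr5, the flagellin receptor, had at most 4 counts in a library (0.107 FPKM on average) and was not tested.

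**Figure D1:**
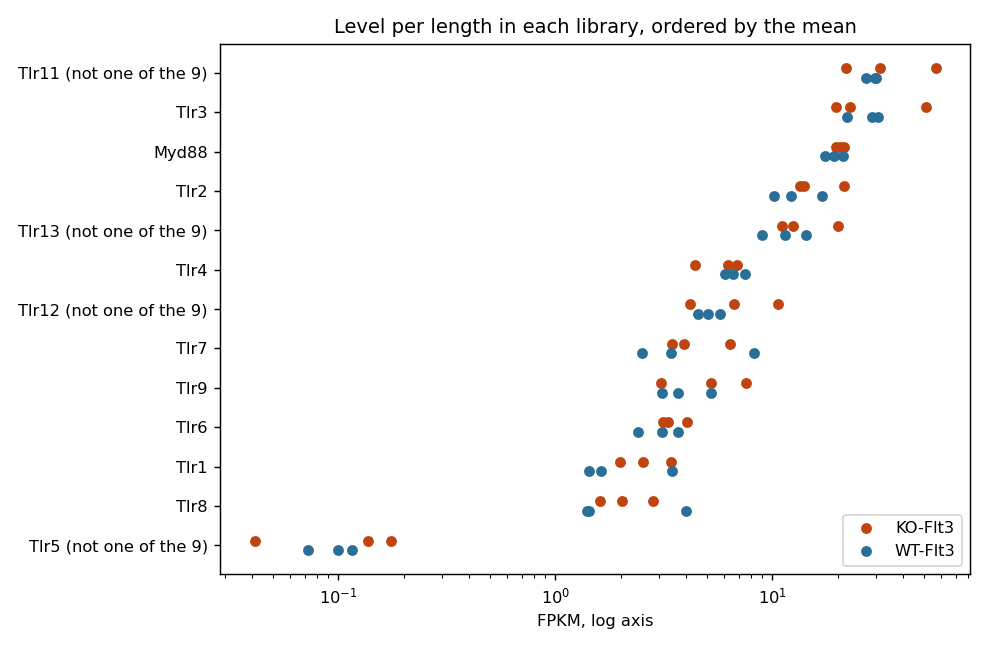
FPKM (log axis) of Myd88 and of the Toll-like receptors in each of the 3 KO-Flt3 (orange) and 3 WT-Flt3 (blue) libraries, ordered by the mean of 6 libraries. Tlr11, Tlr3, Myd88, Tlr2 and Tlr13 have the highest means, and Tlr5 lies far below at 0.107 FPKM on average. Tlr12 in KO-Flt3 library 1 (10.7 FPKM) lies above Tlr2 (10.2 FPKM) and Tlr13 (9.01 FPKM) in WT-Flt3 library 2.

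The comparison asked whether these genes differ in FLT3-ITD progenitors when miR-155 is missing. None of the 9 passed the threshold, an adjusted p under 0.05 over 13217 genes in edgeR's quasi-likelihood test; over all genes 21 passed (0.159%), 2 of them higher in KO-Flt3 (0.0151%) and 19 lower (0.144%). At an unadjusted p under 0.05, 0 of 9 passed in edgeR, against 3.90% of all genes. After adjustment 0 of 9 passed with DESeq2 (0.923% of all genes) or with limma-voom, which passed only 17 of 13217 genes. In the authors' deposited table each of the 9 had an adjusted p of 0.999938, and 0.639% of genes with a value there were under 0.05. With the replicate number as a block, 0 of 9 passed (1.36% of all genes, 0.318% higher and 1.04% lower in KO-Flt3), and 1 of 9, Tlr2, had an unadjusted p under 0.05 (9.37% of all genes). The groups overlapped for all 9, while 8.22% of tested genes had groups that did not. Fold changes were positive for 6 genes and negative for 3, with a median log2 fold change of 0.19, against 0.00096 over all tested genes. In the 3 pairs of libraries with equal numbers, KO-Flt3 was higher in all of them for 3 of 9 genes (Tlr1, Tlr2 and Myd88; 15.1% of all tested genes), and lower in all of them for none (16.5%).

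**Figure D2:**
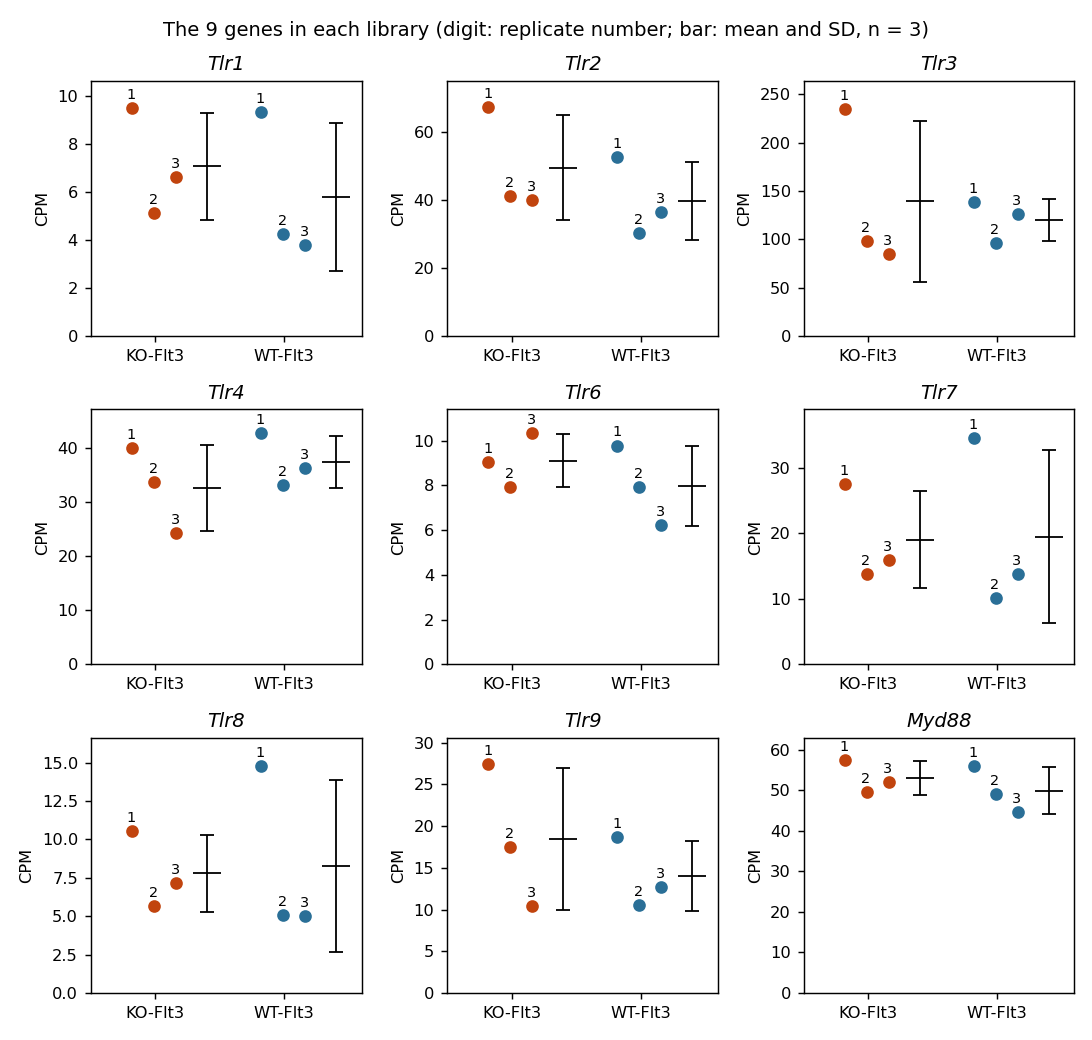
CPM of the 9 genes in each library, KO-Flt3 left and WT-Flt3 right, with digits for the replicate number and bars for the mean and SD (n = 3). The groups overlap in every panel; library 1 is the highest of its group throughout, except for Tlr6 in KO-Flt3, where library 3 is highest at 10.3 CPM.

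Myd88, the shared adaptor, was the steadiest of the 9. Its gene (ENSMUSG00000032508) lies on the minus strand of chromosome 9, 119335934 to 119341411 (GRCm38). It had 57.6, 49.6 and 52.1 CPM in KO-Flt3 libraries 1, 2 and 3, against 56.1, 49.0 and 44.6 CPM in WT-Flt3 libraries 1, 2 and 3. The values lay close together and the groups overlapped. The log2 fold change of Myd88 was 0.09 ± 0.12 (SE; adjusted p 0.9995 in edgeR), with a 95% interval of -0.18 to 0.36, or 0.882 to 1.28 times the WT-Flt3 level. Within groups the SD of log2 CPM was 0.14, and 36.0% of tested genes had a smaller one, while counting alone would give 0.072. Acaa1a on the opposite strand and Slc22a14 on the same strand overlap Myd88, and it is not known whether the counting used strand, so its counts may hold reads of these genes.

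Among the surface receptors, Tlr2, which pairs with Tlr1 or Tlr6 to bind lipopeptides (ENSMUSG00000027995, chromosome 3, 83836272 to 83841767, minus strand), had the smallest unadjusted p of the 9, 0.279 in edgeR. It had 67.4, 41.3 and 39.8 CPM in KO-Flt3 and 52.6, 30.3 and 36.4 CPM in WT-Flt3. KO-Flt3 was higher at each number, by 0.36, 0.44 and 0.13 in log2 CPM at numbers 1, 2 and 3, yet WT-Flt3 library 1 exceeded KO-Flt3 libraries 2 and 3. The log2 fold change of Tlr2 was 0.31 ± 0.27 (SE; adjusted p 0.9995 in edgeR, 95% interval -0.31 to 0.94). With the block it was 0.31 ± 0.09 (SE), with an adjusted p of 0.309 and adjusted p of 0.309 to 1.00 over all alternatives. Without KO-Flt3 replicate 1 it was 0.031, and without WT-Flt3 replicate 1 it was 0.57.

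Tlr1 and Tlr6, the partners of Tlr2, are neighbouring paralogs on the minus strand of chromosome 5 (Tlr1, ENSMUSG00000044827, 64924679 to 64933563; Tlr6, ENSMUSG00000051498, 64952031 to 64960097). Their sequences are alike, and how shared reads were counted was not given, so their counts are uncertain. Tlr1 had 9.50, 5.12 and 6.62 CPM in KO-Flt3 (40 to 62 counts) and 9.34, 4.25 and 3.79 CPM in WT-Flt3 (31 to 86 counts). Library 1 was the highest in both groups, and the other libraries of KO-Flt3 lay above those of WT-Flt3. Tlr1 had a log2 fold change of 0.28 ± 0.41 (SE), 0.81 without WT-Flt3 replicate 1 and 0.016 without KO-Flt3 replicate 1, with no call in edgeR. Tlr6 had 9.04, 7.94 and 10.3 CPM in KO-Flt3 and 9.78, 7.92 and 6.23 CPM in WT-Flt3. Only at number 3 did its libraries differ by much, by 0.71 in log2 CPM, against -0.11 and 0.0034 at numbers 1 and 2. Its log2 fold change was 0.19 ± 0.22 (SE), and -0.057 without both libraries of number 3.

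Tlr4, the lipopolysaccharide receptor (ENSMUSG00000039005, chromosome 4, 66827584 to 66930284, plus strand), was the surface receptor with a negative fold change. It had 40.0, 33.7 and 24.3 CPM in KO-Flt3 and 42.7, 33.2 and 36.3 CPM in WT-Flt3. KO-Flt3 library 3 was the lowest of all, and the pairs differed by -0.094, 0.022 and -0.58 in log2 CPM. The log2 fold change of Tlr4 was -0.20 ± 0.19 (SE; adjusted p 0.9995 in edgeR, 95% interval -0.64 to 0.25), and -0.021 without KO-Flt3 replicate 3. Per length, Tlr4 had 5.84 ± 1.26 FPKM in KO-Flt3 and 6.71 ± 0.726 FPKM in WT-Flt3. Its partner Ly96 (MD-2), which binds lipopolysaccharide beside it, had 5.19 ± 0.804 FPKM in KO-Flt3 and 7.18 ± 0.704 FPKM in WT-Flt3, a similar level. Cd14, which hands lipopolysaccharide on, had 2.57 ± 0.686 FPKM in KO-Flt3 and 1.91 ± 0.679 FPKM in WT-Flt3 (SD, n = 3 each). Ly96 had 2.91, 3.59 and 2.89 CPM in KO-Flt3 (19 to 28 counts) and 4.35, 3.90 and 4.77 CPM in WT-Flt3 (34 to 40 counts). Ly96 was lower in every KO-Flt3 library than in any WT-Flt3 library, as were 4.79% of tested genes, and its log2 fold change of -0.46 ± 0.23 (SE) did not pass (adjusted p 0.9995 in edgeR).

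Among the endosomal receptors, Tlr3, which binds double-stranded RNA (ENSMUSG00000031639, chromosome 8, 45395665 to 45411080, minus strand), spread widely. It had 235, 98.0 and 85.2 CPM in KO-Flt3 and 138, 96.0 and 126 CPM in WT-Flt3. KO-Flt3 library 1 was the highest and KO-Flt3 library 3 the lowest of all 6. The pairs differed by 0.77, 0.030 and -0.56 in log2 CPM, so the direction depended on the number. The log2 fold change of Tlr3 was 0.21 ± 0.37 (SE; adjusted p 0.9995 in edgeR, 95% interval -0.66 to 1.09). It was -0.39 without KO-Flt3 replicate 1 and -0.27 without both libraries of number 1. Gm45542, on the opposite strand, overlaps Tlr3, and its reads may be among the counts.

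Tlr9, the receptor for unmethylated CpG DNA (ENSMUSG00000045322, chromosome 9, 106222598 to 106226883, plus strand), had the largest positive fold change of the 9. It had 27.4, 17.6 and 10.5 CPM in KO-Flt3 and 18.7, 10.6 and 12.7 CPM in WT-Flt3. KO-Flt3 was higher at numbers 1 and 2, by 0.55 and 0.72 in log2 CPM, while the difference was -0.27 at number 3. The fold change of Tlr9 on the log2 scale was 0.40 ± 0.36 (SE), with a 95% interval of -0.45 to 1.25 and an adjusted p of 0.9995 in edgeR. It was 0.0081 without KO-Flt3 replicate 1 and 0.68 without KO-Flt3 replicate 3.

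Tlr7 and Tlr8, receptors for single-stranded RNA and its breakdown products, lie near each other on the minus strand of the X chromosome (Tlr7, ENSMUSG00000044583, 167304929 to 167330558; Tlr8, ENSMUSG00000040522, 167242696 to 167264329). Tlr7 had 27.4, 13.7 and 15.8 CPM in KO-Flt3 and 34.5, 10.1 and 13.8 CPM in WT-Flt3. Tlr8 had 10.6, 5.64 and 7.17 CPM in KO-Flt3 and 14.8, 5.05 and 5.01 CPM in WT-Flt3. Both genes were highest in WT-Flt3 library 1, next in KO-Flt3 library 1 and lower in the other 4 libraries. Their log2 fold changes were -0.046 ± 0.48 and -0.099 ± 0.47 (SE; adjusted p 0.9995 each in edgeR), and 0.66 and 0.62 without WT-Flt3 replicate 1. At number 1 the difference in log2 CPM was -0.33 for Tlr7 and -0.47 for Tlr8. Among the libraries of numbers 2 and 3, KO-Flt3 was higher in both pairs, by 0.43 and 0.20 in log2 CPM for Tlr7 and by 0.15 and 0.50 for Tlr8. Without both libraries of number 1, Tlr7 and Tlr8 did not pass (adjusted p 0.9755 and 0.981 in edgeR). With all libraries, their 95% intervals, -1.17 to 1.07 and -1.21 to 1.01, were the widest of the 9.

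**Figure D3:**
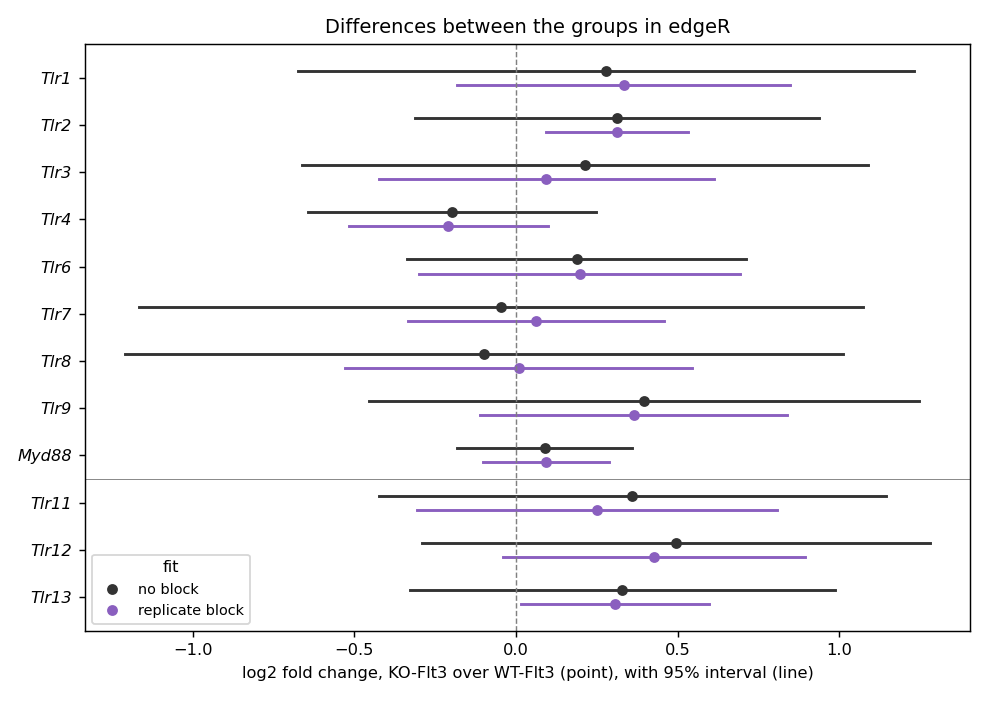
Log2 fold change of KO-Flt3 over WT-Flt3 (points) with 95% intervals (lines) in edgeR, without a block (black) and with the replicate number as a block (purple), for the 9 genes and, below the line, Tlr11, Tlr12 and Tlr13. Without the block every interval holds 0; with it, those of Tlr2 and Tlr13 do not, and their adjusted p are 0.309 and 0.505.

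Spread between libraries of 1 group was thus larger than any difference between the groups, and it was uneven among the 9 genes. The within-group SD of log2 CPM was 0.74 for Tlr7 and 0.69 for Tlr8, above those of at least 95% of tested genes. Tlr3 (0.59), Tlr1 (0.57) and Tlr9 (0.57) also exceeded the SD of at least 91.4% of tested genes, and Tlr2 (0.41), Tlr4 (0.29) and Tlr6 (0.26) that of 82.7%, 70.3% and 66.3%. The median over all tested genes was 0.18. Counting alone would give 0.048 for Tlr3, 0.13 for Tlr7 and 0.20 for Tlr8, and 0.18 for Tlr6.

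Some of the receptors followed different sets of marker genes across the libraries. These sets were read from the values, so they are a description. Tlr3 and Tlr9 were raised most in KO-Flt3 library 1, by 1.36 and 1.00 in log2 CPM over the mean of KO-Flt3 libraries 2 and 3, and less in WT-Flt3 library 1, by 0.33 and 0.68 over WT-Flt3 libraries 2 and 3. The rise of Tlr9 was thus less uneven than that of Tlr3, while Tlr11 (1.22 in KO-Flt3, 0.11 in WT-Flt3) had an uneven rise as Tlr3 did. So had Clec9a (1.45 in KO-Flt3, 0.25 in WT-Flt3) and Xcr1 (1.39 in KO-Flt3, 0.30 in WT-Flt3), which mark the conventional dendritic cells that take up dead cells. Clec9a had 331, 132 and 112 CPM in KO-Flt3 and 174, 131 and 165 CPM in WT-Flt3, the same order of libraries as for Tlr3. Tlr7 (0.88 in KO-Flt3, 1.53 in WT-Flt3), Tlr8 (0.71 in KO-Flt3, 1.51 in WT-Flt3) and Tlr1 (0.68 in KO-Flt3, 1.17 in WT-Flt3) were raised more in WT-Flt3 library 1. So were the macrophage genes C1qa, a complement subunit (2.83 in KO-Flt3, 3.73 in WT-Flt3), and Mertk, a receptor for dying cells (2.88 in KO-Flt3, 4.43 in WT-Flt3). C1qa had 39.8, 3.46 and 8.27 CPM in KO-Flt3 and 69.0, 3.79 and 6.48 CPM in WT-Flt3. Over the whole lists, the excess of library 1 was larger in WT-Flt3 for 13 of 15 tested macrophage markers and larger in KO-Flt3 for 2, Cd68 (0.89 in KO-Flt3, 0.67 in WT-Flt3) and Timd4 (1.27 in KO-Flt3, 0.18 in WT-Flt3). Of 13 dendritic markers, 13 had the larger excess in KO-Flt3, and 12 were highest in KO-Flt3 library 1. Of the 9 genes, 4 had the larger excess in KO-Flt3 and 5 in WT-Flt3. The stem cell gene Hlf went the other way (-1.25 in KO-Flt3, -1.06 in WT-Flt3). What part of the receptor RNA came from such mature cells was not tested.

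**Figure D4:**
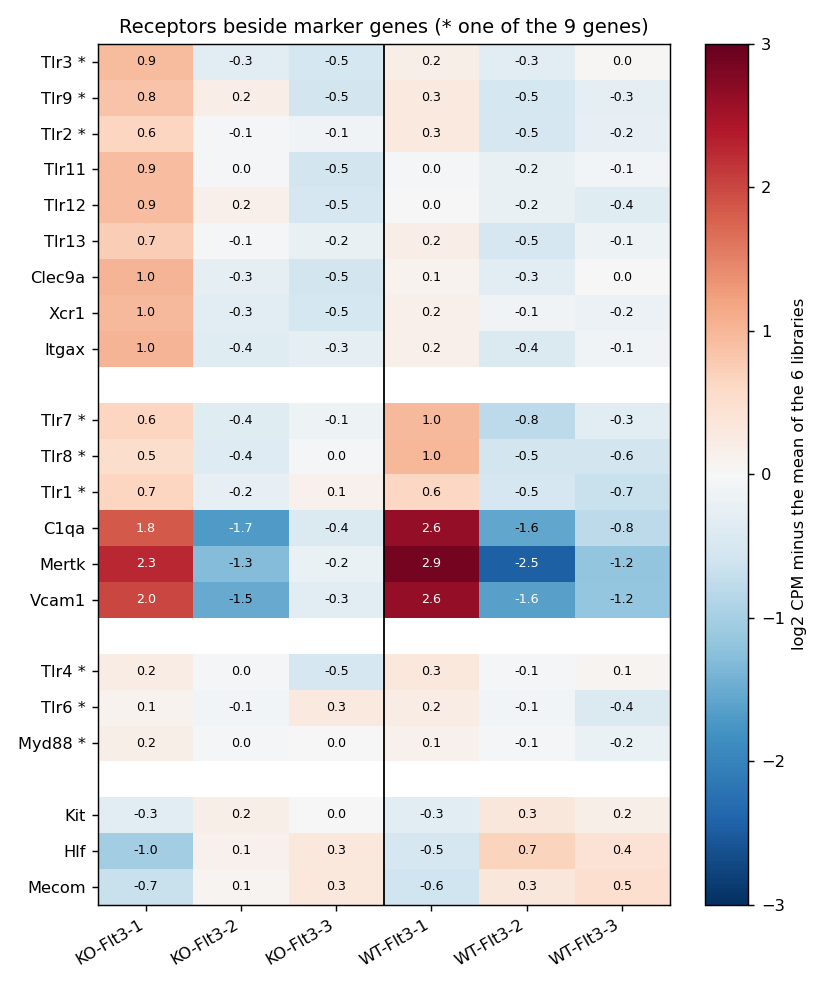
Log2 CPM of receptors, Myd88 and marker genes in each library relative to the mean of the 6 libraries (red above, blue below; the number is printed in each field), KO-Flt3 left of the line and WT-Flt3 right. Tlr3, Tlr9 and Tlr2 are highest in KO-Flt3 library 1, with Clec9a, Xcr1 and Itgax. Tlr7 and Tlr8 are highest in WT-Flt3 library 1, with C1qa, Mertk and Vcam1. Tlr1, drawn beside these macrophage genes, is highest in KO-Flt3 library 1 (9.50 CPM, against 9.34 in WT-Flt3 library 1). Library 1 of Tlr2 exceeds the mean of libraries 2 and 3 by 0.73 in KO-Flt3 and 0.66 in WT-Flt3. Myd88 varies little.

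Over the 6 libraries, the genes whose log2 CPM had the highest Pearson r with each of the 9 were looked up among 10305 or 10306 tested genes with a mean log2 CPM of at least 3. With so many genes and so few libraries an r near 1 is easily found. Tlr3 was closest to Rnase6, an antimicrobial ribonuclease (r = 0.999), and Asb2, a ubiquitin ligase subunit (0.996). Tlr9 was closest to Scarb1, the lipoprotein receptor (0.993), and Cotl1, an actin-binding protein (0.990). Tlr7 was closest to Plxna1, a semaphorin receptor (0.997), and 9930021J03Rik (0.996), and Tlr8 to Sirpa, an inhibitory receptor of myeloid cells (0.994), and Ercc6l, a DNA helicase (0.993). Tlr1 was closest to Gria3, a glutamate receptor subunit (0.996), and Card9, an adaptor of C-type lectin receptors (0.995), and Tlr2 to Slc8a1, a sodium-calcium exchanger (0.995), and Fbxw2, an F-box protein (0.993). Tlr4 was closest to the phosphatase Dusp22 (0.988) and the tubulin cofactor Tbcb (0.978), and Tlr6 to Mrps11 of the mitochondrial ribosome (0.987) and Med21 of the mediator complex (0.974). Myd88 was closest to Rasal2, a Ras inhibitor (0.998), and Cnn3, a calponin (0.994).

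Genes that carry, assist or transmit receptor signals were read from the same fit. Where 0 passed in edgeR below, DESeq2 also called 0. At an unadjusted p under 0.05 in edgeR, which 3.90% of all genes had, there were 0 of the 15 co-receptors and 0 of the 4 adaptors. There were 1 of the 25 kinases and factors (Irf7), 1 of the 16 inhibitors (Il1rl1) and 0 of the 9 reported miR-155 targets. Of the 6 interleukin-1 family receptors there was 1, again Il1rl1, which is on both lists. Of 15 co-receptors, chaperones and trafficking proteins, 0 passed in edgeR (median log2 fold change 0.083). With the block 1 rose, against 0.318% of all genes: Ly86 (MD-1), the partner of the receptor-like Cd180. Ly86 had 154, 85.3 and 84.2 CPM in KO-Flt3 and 118, 64.9 and 64.4 CPM in WT-Flt3. It was higher at each number, while WT-Flt3 library 1 exceeded KO-Flt3 libraries 2 and 3. Its log2 fold change was 0.38 ± 0.32 (SE; adjusted p 0.9995 in edgeR), and 0.39 ± 0.06 (SE; adjusted p 0.0430) with the block, the only alternative in which it passed (adjusted p 0.0430 to 1.00 over all). Without KO-Flt3 replicate 1 it was 0.043 and without WT-Flt3 replicate 1 it was 0.74. Hsp90b1 (gp96), the chaperone that folds most Toll-like receptors and also many secreted proteins, had a log2 fold change of -0.39 ± 0.18 (SE), and Nrros, a regulator of these receptors, 0.18 ± 0.09 (SE); neither passed. Unc93b1, which carries the endosomal receptors and was named after its values were seen, had 547, 345 and 333 CPM in KO-Flt3 and 374, 285 and 307 CPM in WT-Flt3. KO-Flt3 was higher at every number, as for 15.1% of all tested genes, and the groups overlapped. Unc93b1 had a log2 fold change of 0.34 ± 0.21 (SE) and did not pass (adjusted p 0.9995 in edgeR, 0.323 with the block).

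Of the 4 other adaptors tested, 0 passed with or without the block, and all 4 had a positive fold change (median 0.19). Tirap, which bridges Tlr2 and Tlr4 to Myd88, had 0.22 ± 0.12, Ticam2, which bridges Tlr4 to Ticam1, 0.17 ± 0.13, and Pik3ap1, which links the receptors to PI3 kinase, 0.35 ± 0.24 (log2 fold change ± SE). Of 25 kinases, ubiquitin ligases and transcription factors, 0 passed in edgeR (median 0.053). With the block 1 rose, against 0.318% of all genes: Irf7, the interferon regulatory factor that Myd88 activates downstream of Tlr7 and Tlr9. Irf7, itself induced by interferon, had 383, 204 and 164 CPM in KO-Flt3 and 185, 109 and 103 CPM in WT-Flt3. KO-Flt3 was higher at each number, while WT-Flt3 library 1 lay above KO-Flt3 library 3. For Irf7 the log2 fold change was 0.92 ± 0.35 (SE; adjusted p 0.9995 in edgeR), and 0.88 ± 0.09 (SE; adjusted p 0.00477) with the block; it passed in none of its other alternatives (adjusted p 0.00477 to 1.00 over all), and was 0.48 without KO-Flt3 replicate 1. Tab3 (-0.21 ± 0.10), a partner of the kinase Map3k7, and Peli1 (0.25 ± 0.13), a ubiquitin ligase, had the next smallest p and did not pass.

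Of 16 inhibitors, 0 passed with or without the block (median log2 fold change 0.025). Il1rl1, a receptor for interleukin-33 that uses Myd88 and of which 1 form dampens it, had 1.99, 2.05 and 1.65 CPM in KO-Flt3 and 4.89, 3.45 and 2.69 CPM in WT-Flt3. Every KO-Flt3 library lay below every WT-Flt3 library, as for 4.79% of tested genes. The log2 fold change of Il1rl1, -0.95 ± 0.31 (SE), had an adjusted p of 0.883 in edgeR. Il1rl1 rested on 12 to 16 counts in KO-Flt3 and 22 to 45 counts in WT-Flt3. Counting alone would give it an SD of 0.34 in log2 CPM, and its SD within groups was 0.31. Atf3, a transcription factor that restrains the response, had 0.48 ± 0.22 (SE), and Trim30a, which targets the Tab proteins, 0.49 ± 0.26 (SE), neither with a call. Of 6 interleukin-1 family receptors that share Myd88, 0 passed, and 5 had a negative fold change (median -0.30). Il1r1, the interleukin-1 receptor (-0.32 ± 0.31), and Il1rl2, the interleukin-36 receptor (-0.32 ± 0.25), were among them.

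Of 24 genes that these receptors induce, 18 were tested, with a median log2 fold change of 0.33; 15 were positive and 3 negative, against 50.2% positive over all tested genes. In edgeR 1 rose, the chemokine Cxcl10, and 0 fell, with or without the block. Over all genes 0.0151% rose without the block and 0.318% with it. Cxcl10 had 27.4, 34.0 and 32.9 CPM in KO-Flt3 and 13.8, 14.0 and 13.3 CPM in WT-Flt3. Every KO-Flt3 library lay above every WT-Flt3 library, as for 3.43% of tested genes. Cxcl10 in library 1 differed from the mean of libraries 2 and 3 by -0.28 in KO-Flt3 and 0.014 in WT-Flt3 (log2 CPM). Its log2 fold change was 1.20 ± 0.13 (SE; adjusted p 0.0339 in edgeR), with adjusted p of 3.30e-08 to 0.282 over the alternatives. Cxcl10 did not pass without WT-Flt3 replicate 1 (0.117), 2 (0.101) or 3 (0.165), without KO-Flt3 replicate 2 (0.0980) or 3 (0.0574), or without both libraries of number 2 (0.269) or of number 3 (0.282; adjusted p in edgeR). Ccl2 (1.28 ± 0.33, adjusted p 0.460) and Ccl4 (0.63 ± 0.26, adjusted p 0.9995), chemokines for monocytes and T cells, did not pass in edgeR. An unadjusted p under 0.05 in edgeR was held by 3 of the 18, Cxcl10, Ccl2 and Ccl4, against 3.90% of all genes. The type I interferon gene Ifnb1 had at most 1 count in a library and was not tested, and Il6 had at most 5 counts.

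The miR-155 strand that silences messages begins with a seed, shown here in capitals (bases 2 to 8), that pairs with sites in 3' UTRs. It and the 5 pathway genes with the longest kind of match (8mer, in capitals; 3' UTR written as DNA, 5' to 3', from GENCODE M21) are shown because none of the 9 genes held any such site.
mmu-miR-155-5p: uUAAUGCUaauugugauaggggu
Tab2: ataaggtagaaAGCATTAAtgaaatgaaac
Rela: gctttcgcaggAGCATTAAcctcctggaga
Socs1: cgctgtgccgcAGCATTAAgtgggggcgcc
Inpp5d: tgtttttaaaaAGCATTAAagaaaaccatc
Otud7b: ttcaatatataAGCATTAAaaacccagatt

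The mature miRNA, from RefSeq (GRCm38.p6), lies on chromosome 16, 84714143 to 84714165, plus strand. Seed matches of 3 kinds were searched in the longest annotated 3' UTR of each gene: AGCATTAA (8mer), AGCATTA (7mer-m8) and GCATTAA (7mer-A1), the last pair being parts of the first. Of the 9 genes, 0 held a match in 5967 bases of 3' UTR in all, between 58 bases for Tlr8 and 1496 for Tlr3; Myd88 had 987 bases. Of 93 other pathway genes, 17 held a match (18.3%), against 13.9% of 11723 tested genes with a 3' UTR. No match says only that these letters are not in the annotated 3' UTR. Myd88 is among 9 pathway genes listed as reported miR-155 targets, of which 0 passed in edgeR with or without the block (median log2 fold change 0.088). Of that list, an 8mer was held by Tab2, a partner of Map3k7 (0.14 ± 0.10), Rela, the NF-kB subunit p65 (-0.014 ± 0.10), Socs1, a cytokine signalling inhibitor (0.25 ± 0.28), and Inpp5d, the phosphatase SHIP1 (0.15 ± 0.11; log2 fold change ± SE). Otud7b, a deubiquitinase outside that list, had -0.17 ± 0.19. Also on the list, Peli1 (0.25 ± 0.13) held a 7mer-A1 match, and Ikbke (-0.097 ± 0.18) and Ripk1 (0.068 ± 0.079) held a 7mer-m8 match each. Fadd, an adaptor of cell death receptors (-0.23 ± 0.17), and Myd88 held none.

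Promoters, from 250 bases before to 50 bases after the start of transcription, were found in RefSeq (GRCm38.p6) for 7 of the 9 genes, not for Tlr4 and Tlr7. Those of Tlr3, the highest of the 9 per length, Tlr9, with the largest positive fold change, and Myd88, whose RNA varied least, are shown as examples, with the motifs found in capitals. Tlr3 is at chr8:45410331-45410630 (minus strand), Tlr9 at chr9:106222348-106222647 (plus strand) and Myd88 at chr9:119339969-119340268 (minus strand), each written along its gene.
Tlr3: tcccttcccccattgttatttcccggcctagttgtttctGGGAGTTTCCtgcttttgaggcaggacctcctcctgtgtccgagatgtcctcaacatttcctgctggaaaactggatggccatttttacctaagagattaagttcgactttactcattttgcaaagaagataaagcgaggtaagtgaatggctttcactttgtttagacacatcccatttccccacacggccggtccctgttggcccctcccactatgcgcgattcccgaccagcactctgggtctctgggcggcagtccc
Tlr9: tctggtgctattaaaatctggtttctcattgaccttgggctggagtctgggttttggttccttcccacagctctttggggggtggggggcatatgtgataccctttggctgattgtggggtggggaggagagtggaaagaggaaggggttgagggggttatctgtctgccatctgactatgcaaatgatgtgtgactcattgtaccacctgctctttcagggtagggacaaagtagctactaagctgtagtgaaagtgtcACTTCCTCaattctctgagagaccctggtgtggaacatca
Myd88: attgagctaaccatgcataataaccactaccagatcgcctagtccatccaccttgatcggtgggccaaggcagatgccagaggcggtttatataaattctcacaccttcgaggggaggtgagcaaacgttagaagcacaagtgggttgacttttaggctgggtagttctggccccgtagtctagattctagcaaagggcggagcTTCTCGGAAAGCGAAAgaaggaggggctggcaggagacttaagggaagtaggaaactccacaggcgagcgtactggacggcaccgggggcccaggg

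The motifs, searched on both strands, were the interferon-stimulated response element (GAAA, any 2 bases, GAAA), the ETS-IRF composite element (GGAA, any 2 bases, GAAA), the gamma-activated site (TTC, any 3 bases, GAA), the NF-kB site (GGGA, any base, TTTCC) and the PU.1 site (GAGGAAGT). They occurred in 3.44%, 2.72%, 8.30%, 0.410% and 3.20% of 32851 promoters of this length. Tlr3 held an NF-kB motif from -211 to -202 of its start, and Tlr9 a PU.1 motif from 11 to 18. Myd88 held a gamma-activated site from -46 to -38 that overlaps an interferon-stimulated response element from -40 to -31. Tlr1 and Tlr6 had 2 annotated starts each. The first window of Tlr1 held a PU.1 motif from -23 to -16 and the other a gamma-activated site from -228 to -220. In Tlr6 the first window held 2 overlapping interferon-stimulated response elements, from -116 to -107 and from -110 to -101, and the other 2 gamma-activated sites, from -3 to 6 and from 8 to 16. Tlr8 held a gamma-activated site from -106 to -98, and Tlr2 held none of the motifs. These matches are descriptions and were not tested as sites.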

How the data were processed

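RNA sequencing of 6 libraries was read from the table that the authors deposited, which holds a raw count and an FPKM value (scaled to length and depth) per gene and library beside the authors' log2 fold change and p-value. The submitters' processing notes name the mm10 build, DESeq2 1.10.1 and the aligner Novoalign 2.08.01. Which counter, annotation and strand setting made the deposited counts is not given in the sources used. Counts were fitted with edgeR 4.0.16 (R 4.3.3; TMM scaling, filterByExpr with a minimum count of 10 and total of 15, quasi-likelihood test, Benjamini-Hochberg threshold 0.05), which tested 13217 genes; log2 CPM used a prior count of 2. DESeq2 1.42.0 and limma 3.58.1 were alternatives. A value of 3 counts was 0.326 to 0.460 CPM, and these limits cover counting error only. Replicates of a group differed beyond sampling noise. The p-values set each group difference against the spread between these pools, which edgeR moderates across all tested genes.

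The members and gene lists were chosen with earlier results of these data known. Genes were named by a rule: the 9 genes and up to 3 of each pathway list with the smallest p. To these came those of the lists past the threshold with or without the block, the 2 nearest by Pearson r, and defining markers. Cd14, Cd68, Timd4, Unc93b1, Ikbke, Ripk1 and the genes with an 8mer match were chosen after their values were seen. Equal numbers were taken to pair libraries, since deviations from the group means correlated at 0.573, 0.526 and 0.219 at numbers 1, 2 and 3. At unequal numbers the correlations ran from -0.512 to 0.133. The labels do not say what a number shares, and the pairing was judged on the same counts that the block fit used. The fit was tested on simulated counts. Without the block the fit recovered 22% of genes changed 1.5-fold and 62% of genes changed 2-fold, and with the block 14% and 48%. The simulated libraries shared nothing by replicate number, so these shares cannot rank the 2 fits for the real libraries. The changed genes were drawn at random from tested genes. All of the 9 genes but Myd88 spread more than the median tested gene. The SD of log2 CPM was 0.74 for Tlr7, against a median of 0.18. The shares therefore do not tell how often a change in these receptors would be found. Tlr9, with the largest positive fold change of the 9 genes, stood at 1.32 times the WT-Flt3 level. Sequences came from RefSeq and GENCODE M21.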

Additional observations from a re-analysis of the deposited data

How the results depend on the processing

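Of the 9 genes, 0 passed under all 17 alternatives. Of 144 alternative values of their log2 fold changes, 130 kept direction and 14 reversed. Leaving out 1 library at a time gave -0.39 to 0.47 for Tlr3, -0.40 to 0.66 for Tlr7 and -0.37 to 0.62 for Tlr8, and -0.015 to 0.53 for Tlr13 and -0.15 to 0.64 for Tlr11. The reversed values were, for Tlr3, -0.39 without KO-Flt3 replicate 1 and -0.27 without both libraries of number 1, and for Tlr6 -0.057 without both of number 3. For Tlr7 they were 0.052 with limma-voom, 0.061 with the replicate block, 0.14, 0.070 and 0.66 without KO-Flt3 replicate 2, KO-Flt3 replicate 3 and WT-Flt3 replicate 1, and 0.31 without both of number 1. For Tlr8 they were 0.018 with limma-voom, 0.0089 with the replicate block, 0.087 and 0.62 without KO-Flt3 replicate 2 and WT-Flt3 replicate 1, and 0.35 without both of number 1. Tlr13 was -0.015 and Tlr11 -0.15 without KO-Flt3 replicate 1, and Tlr11 -0.12 without both of number 1.

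Over all genes, 21 passed. The count was 131 with DESeq2, 97 without a filter, 180 with the replicate block, 32 at a threshold of 0.1, 10 without both libraries of number 2, 6 without both of number 3, and 0 to 27 when 1 library was left out. The cause was not tested. Among the 9 genes and the named pathway genes, only the calls of Ly86 and Irf7 changed with the block. Of the cell type markers, the calls of Bst2, Cd28, Ctla4 and 5 B and plasma cell markers changed too. The counting SD in log2 CPM ran from 0.048 for Tlr3 to 0.21 for Tlr1, below the spread between libraries for each of the 9 genes, and there were 3 libraries in a group.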
